A study of Mus musculus with 6 samples.

Results

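The ribosomal proteins examined here are the products of genes named Rpl or Rps with a number, together with Rpsa and the stalk genes Rplp0, Rplp1 and Rplp2. Membership was set by gene symbol, which gave 91 probes for 61 genes out of 45281 probes and 19057 named genes on the array. The family itself was chosen with earlier results of these data known. Of the 61 genes, 24 carry small-subunit names and 37 carry large-subunit names, and genes of S6 kinases were left out. RNA was measured on Illumina single-colour mouse BeadChips, whose probes are bead-bound oligonucleotides that each capture a short stretch of transcript. Whether a probe captures more than 1 transcript was not examined. The samples were mouse embryonic fibroblasts (MEFs), of genotype Trp53-/- Dnmt1+/+ on 3 arrays and Trp53-/- Dnmt1-/- on 3 arrays, so that both groups lack p53. The Dnmt1-/- cells are homozygous for a hypomorphic allele of the maintenance DNA methyltransferase and are severely depleted of DNA methylation. The labels give the strain as unknown and no age or treatment. No source gives more than 1 line per genotype, and genotype and line therefore cannot be told apart. The labels do not say whether replicates came from separate cultures, and p-values then reflect only the spread between these arrays, which may be technical.

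Ribosomal proteins, together with ribosomal RNA, make up the small subunit, which reads the mRNA, and the large subunit, which joins amino acids. Every dividing cell makes them in large and matched amounts, and their mRNAs are among the most abundant in fibroblasts. A few family members are paralogues of limited tissue range, such as Rpl3l in muscle and Rpl39l in testis. Rps4x is the X-linked gene for the small-subunit protein S4. Rps4l carries the name of a relative of Rps4x.

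In the RefSeq gene table (GRCm38.p6) all 61 genes were found, 60 of them as protein-coding genes. The exception was Rps4l, which is annotated as a transcribed pseudogene on chromosome 6. Its gene model spans 941 bases and lies within the span of Tmtc1, a protein-coding gene, whereas the Rps4x model on chromosome X spans 4451 bases. Promoter windows of 250 bases before the annotated start and 50 after it were at hand for 50 of the 61 genes, with 60 starts. Each of the 60 windows had at least 1 CG dinucleotide, the target of DNA methyltransferases, in its upstream 250 bases, as did 93.4% of 21263 starts of all protein-coding genes. The CG count had a median of 16 in ribosomal protein genes, with a range of 2 to 31, against 10 for all. Rps4l, Rpl21, Rplp1 and Rpl3 were among the 11 genes without a window. Upstream windows of Rps4x, Rps15a and Rpl3l are shown because they belong to the partner of Rps4l, to the gene that fell and to the window with the fewest CG. They are written 5′ to 3′ on the strand of the gene, with every CG in capitals, from chrX:102189392-102189641 (minus strand, 7 CG), chr7:118116148-118116397 (minus strand, 13 CG) and chr17:24727576-24727825 (plus strand, 2 CG).
Rps4x: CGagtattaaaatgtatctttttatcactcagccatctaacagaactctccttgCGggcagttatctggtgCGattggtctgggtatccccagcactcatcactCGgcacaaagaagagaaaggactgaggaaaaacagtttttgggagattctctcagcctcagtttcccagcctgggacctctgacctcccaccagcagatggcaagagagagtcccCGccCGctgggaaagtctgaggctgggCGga
Rps15a: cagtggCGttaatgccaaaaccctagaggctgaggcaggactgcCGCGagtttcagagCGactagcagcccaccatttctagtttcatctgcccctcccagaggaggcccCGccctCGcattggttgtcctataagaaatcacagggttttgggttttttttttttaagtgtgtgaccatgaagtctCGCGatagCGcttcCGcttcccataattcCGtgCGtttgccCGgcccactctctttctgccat
Rpl3l: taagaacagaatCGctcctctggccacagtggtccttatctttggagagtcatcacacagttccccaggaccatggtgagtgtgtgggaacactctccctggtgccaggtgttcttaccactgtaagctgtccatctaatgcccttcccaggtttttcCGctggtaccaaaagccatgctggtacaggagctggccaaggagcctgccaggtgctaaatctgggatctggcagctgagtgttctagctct

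Many ribosomal protein mRNAs in mammals begin with a C and a run of pyrimidines, the 5′ terminal oligopyrimidine tract, through which their translation follows growth signals. A C with at least 4 pyrimidines directly after it, read on the gene's strand at the annotated first base, was found at 9 of the 60 ribosomal protein starts (15%) and at 2.21% of all 21263 starts. Annotated starts can lie away from the true first base, so a start without the run says only that the letters are not at that position. The starts of Rps15a, Rps6, Rpl38 and Rplp2 are shown as examples whose RNA values follow. Each line holds 25 bases, of which the last 15 lie in the transcript, with the run in capitals. They come from chr7:118116133-118116157 (minus strand), chr4:86857353-86857377 (minus strand), chr11:114668570-114668594 (plus strand) and chr7:141447641-141447665 (plus strand). The first 10 bases of the Rps15a line are also the last bases of its upstream window.
Rps15a: tttctgccatCTTCCCTCgccggtg
Rps6: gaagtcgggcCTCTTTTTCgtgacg
Rpl38: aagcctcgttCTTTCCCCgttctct
Rplp2: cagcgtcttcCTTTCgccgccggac

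Arrays had a mean raw intensity of 326 to 357 for Dnmt1+/+ and 217 to 397 for Dnmt1-/- MEFs, where replicates 2 and 3 were the dimmer ones. The number of probes above background ran from 14699 to 16499. Across tested probes, the correlation of 2 arrays was 0.972 to 0.987 within Dnmt1+/+, 0.956 to 0.986 within Dnmt1-/- and 0.876 to 0.938 for arrays of opposite genotype. The Dnmt1 probe was 4.31-fold lower in Dnmt1-/- MEFs (limma adjusted p = 0.0019), although the sources used here do not show where it lies relative to the mutation. Of 12 fibroblast marker genes 10 were above background on every Dnmt1+/+ array and 8 on every Dnmt1-/- array. The fibroblast marker Thy1 fell to background in Dnmt1-/- MEFs, and Postn was not above background on any array. Of the 10 fibroblast markers tested, Fn1 also fell, 4.20-fold, S100a4 rose 2.98-fold, 7 did not pass, and 5 had differences above 0. The markers called, Thy1, Fn1 and S100a4, were 30% of those tested, against 17.4% of all tested genes. The summed background-corrected signal of the fibroblast markers was 18600 to 19600 on Dnmt1+/+ and 7970 to 21100 on Dnmt1-/- arrays. Of 9 blood cell markers 6 were not above background on any array, Ptprc, Lyz2 and Tyrobp among them, and the same held for 5 of 6 endothelial, 5 of 7 epithelial, 5 of 6 germ cell and 2 of 3 erythroid markers. The blood markers Cd53 and Cd14 rose by 1.00 and 0.98 on the log2 scale (limma adjusted p = 0.018 and 0.014), and Csf1r did not pass. Krt14 of the epithelial list rose by 1.08 and Hba-a1 of the erythroid list by 1.29 (limma adjusted p = 0.013 and 0.021). Cd53, Krt14 and Hba-a1 were above background on Dnmt1-/- arrays alone. The summed signal of the blood list was 173 to 253 on Dnmt1+/+ and 200 to 482 on Dnmt1-/- arrays, of the endothelial list 56.0 to 64.1 and 41.4 to 65.9, of the epithelial list 42.3 to 45.9 and 40.3 to 95.1, and of the erythroid list 26.4 to 32.7 and 28.2 to 132. The germ cell list summed to 33.5 to 41.7 on Dnmt1+/+ and 1080 to 6150 on Dnmt1-/- arrays, where its gene Tex19.1 was above background, while Dazl, Ddx4, Sycp3, Sycp1 and Mael were not.

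Rps4l went from background to a strong signal in Dnmt1-/- MEFs, and Rps4x was near the top of the signal range in both groups. A probe was called above background at a detection p under 0.01, the share of negative control beads as bright as the probe. The Rps4l probe (ILMN_2737090) read 4.28, 4.20 and 4.23 in Dnmt1+/+ replicates 1 to 3 and 11.32, 11.80 and 11.62 in Dnmt1-/- replicates 1 to 3, as normalized log2 signal. It was thus above background on every Dnmt1-/- array and on no Dnmt1+/+ array, and the groups lay far apart. On the raw scale its intensity was 103, 98.3 and 97.7 in Dnmt1+/+ MEFs and 3500, 2660 and 1860 in Dnmt1-/- MEFs. Of all probes on the array, 28.5%, 5.66% and 13.9% were dimmer than it on the Dnmt1+/+ arrays, and 98.1%, 98.8% and 98.6% on the Dnmt1-/- arrays.

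In Dnmt1-/- MEFs the level of Rps4l was at least 100.1-fold higher than in Dnmt1+/+ MEFs under the main processing. This bound sets the mean of the Dnmt1-/- arrays against the lowest signal that counts as above background in Dnmt1+/+ MEFs. It was 6.65 on the log2 scale and carries no test. The fitted log2 difference, which takes the background reading at face value, was 7.34 ± 0.17 (SE, n = 3 per group, limma adjusted p = 3.7e-07). The gene passed the filter for testing only through its Dnmt1-/- arrays. Silence on all Dnmt1+/+ arrays with signal on all Dnmt1-/- arrays was shared with other genes, as 215 tested genes in all had that pattern. The rise was called in each of the other settings that kept the gene, with fitted differences of 4.80 to 7.47. Without background correction (4.80), with the authors' processed values (4.88) and at offset 50 (5.87) the fitted difference was below that bound. In bulk RNA, more cells with a transcript and more transcript per cell cannot be told apart.

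Rps4x read 13.85, 13.93 and 13.70 in Dnmt1+/+ MEFs and 14.21, 13.80 and 13.96 in Dnmt1-/- MEFs, as normalized log2 signal of probe ILMN_2948086. The groups overlapped, since Dnmt1-/- replicate 2 lay between Dnmt1+/+ replicates. Its log2 difference was 0.16 ± 0.17 (SE), with a 95% interval of -0.23 to 0.55 (limma adjusted p = 0.55). The change of Rps4l exceeded that of Rps4x by 7.18 on the log2 scale, or by 6.48 (89.49-fold) with Rps4l held at the detection floor in Dnmt1+/+ MEFs. An exact two-sided permutation test over the 6 arrays gave p = 0.1, the smallest value that 3 arrays against 3 allow, which the detection of Rps4l in 1 group alone had already fixed and which adds no support. The Rps4l probe stayed at background on the Dnmt1+/+ arrays, where the Rps4x probe was bright. Whether the Rps4l probe captures other transcripts was not tested.

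**Figure D1:**
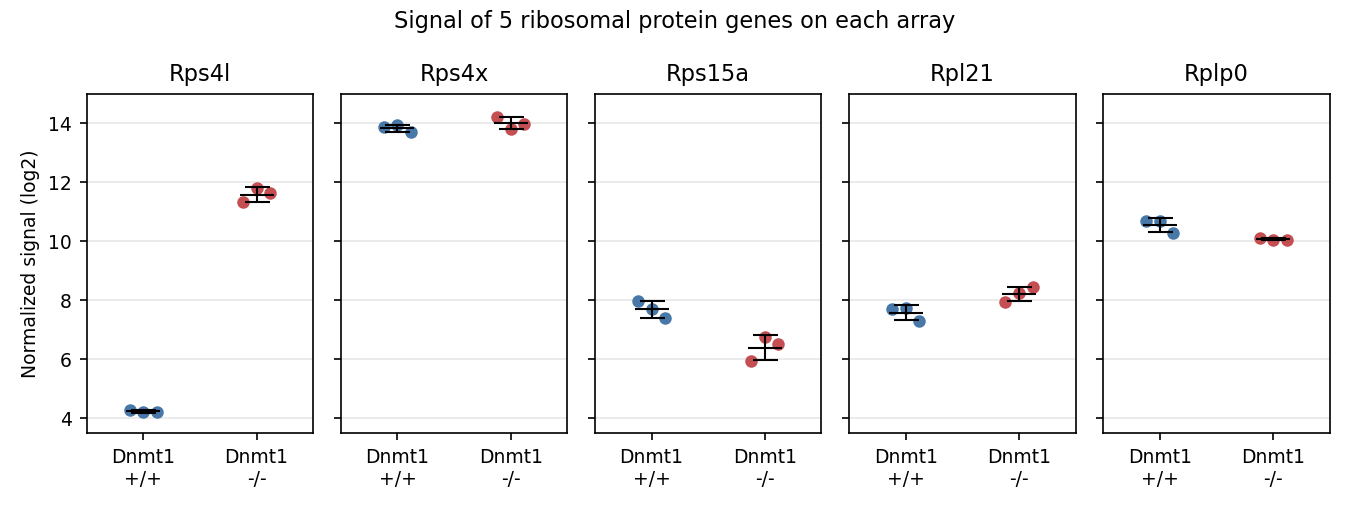
Normalized signal on the log2 scale for 5 ribosomal protein genes, 1 point per array, with Dnmt1+/+ in blue and Dnmt1-/- in red; black marks give the mean and SD of 3 arrays. Rps4l moves from 4.20 to 4.28 up to 11.32 to 11.80, while the Rps4x groups overlap and Rps15a lies lower on all Dnmt1-/- arrays.

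Genes around Rps4l on chromosome 6 showed no comparable rise. The gene that contains it, Tmtc1, which encodes an endoplasmic reticulum protein, had 4 probes, and none was above background on a Dnmt1+/+ array. One of them (ILMN_2721218) reached 5.22 on Dnmt1-/- replicate 3, and all other Tmtc1 readings lay between 4.20 and 4.45, so the host gene was not tested. Of the 9 nearest tested genes, 5 on 1 side and 4 on the other, 1 was called. This was Ccdc91, with a log2 difference of 0.95 ± 0.23 (SE, limma adjusted p = 0.028). The closest tested neighbours of Rps4l, Ergic2 and Ipo8, a nuclear import factor, had log2 differences of 0.07 and 0.00. Etfbkmt and Resf1, farther out, measured 0.75 and 0.66 (limma adjusted p = 0.11 and 0.18). The remaining neighbours Rep15, Mrps35, Klhl42 and Dennd5b lay between -0.40 and -0.05. Over all 435 tested genes of chromosome 6 the median log2 difference was -0.02. Of these genes 11.5% were called higher and 5.75% lower, against 9.61% and 7.82% of all tested genes.

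The ribosomal protein genes other than Rps4l differed little between the groups. Of the 61 genes, 52 passed the filter for testing, which asked for a signal above background on at least 3 of the 6 arrays and so admits a gene that is silent in 1 group. Of these 52, 1 rose (Rps4l), 1 fell (Rps15a) and 50 did not pass at an adjusted p under 0.05. That is 3.85% of the tested members, where 17.4% of all 8716 tested genes were called, 9.61% higher and 7.82% lower. Over the 73 tested probes of these genes the result was likewise 1 higher and 1 lower, against 16.2% of all tested probes called, 8.48% higher and 7.69% lower. At an unadjusted p under 0.05 there were 4 members, Rps4l, Rps15a, Rpl21 and Rplp0, compared with 33.8% of all genes. The arrays of the groups were apart in 12 members, 5 higher and 7 lower (23.1%), against 40.3% of all genes, 18.7% higher and 21.7% lower.

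Over the 51 genes without Rps4l the median log2 difference was -0.05, the same as over all tested genes, with 21 positive and 30 negative values between -1.30 and 0.63. The sign of a median so near 0 turned with the scaling, since with Rps4l included the members' median was -0.03, -0.15 under median scaling and 0.05 under cyclic loess. The median size of the difference, regardless of sign, was 0.14 in these genes and 0.33 in all genes. Differences lay within 0.5 for 49 of the 51 genes (96.1%), against 67.8% of all genes. The 95% interval lay within a 2-fold change either way for 49 of 51 genes and for 66.8% of all genes, and within 1.5-fold for 39 of the 51. Replicates also lay close, with a median SD between arrays of 0.10 in Dnmt1+/+ and 0.12 in Dnmt1-/- MEFs, compared with 0.19 and 0.24 over all genes. These genes are bright, as 41 of the 52 were measured by a probe in the top 1% of all probes by mean signal and 48 by one in the top 5%, and the part of brightness in these shares was not tested.

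**Figure D2:**
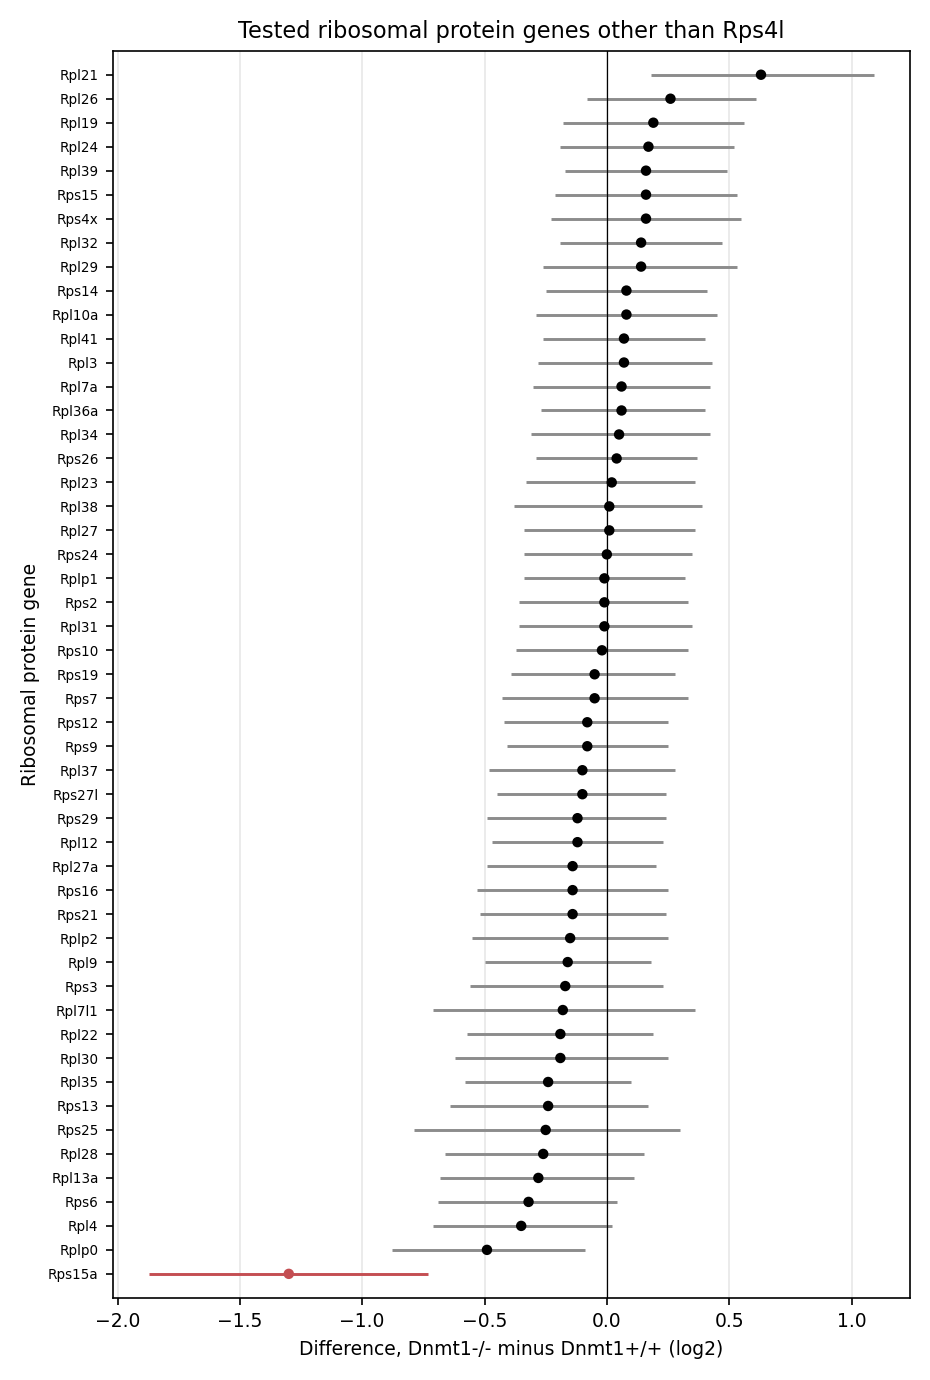
Log2 difference between Dnmt1-/- and Dnmt1+/+ MEFs (horizontal axis) for the 51 tested ribosomal protein genes other than Rps4l, ordered by value; points are fitted differences, lines 95% intervals, and red marks an adjusted p under 0.05. Rps15a at -1.30 is the 1 gene in red, and Rpl21 at 0.63 is the highest of the rest.

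Small-subunit genes had a median log2 difference of -0.08 (20 genes without Rps4l) and large-subunit genes of 0.01 (31 genes), a difference that was not tested. The SE of single genes ran from 0.14 to 0.25. Rps15a, a small-subunit protein, was the gene that fell. Its single probe (ILMN_2717621) read 7.99, 7.70 and 7.41 in Dnmt1+/+ MEFs and 5.94, 6.74 and 6.52 in Dnmt1-/- MEFs. Every Dnmt1-/- array lay below every Dnmt1+/+ array. The log2 difference was -1.30 ± 0.25 (SE), a 2.47-fold lower level, with a 95% interval of -1.87 to -0.73 (limma adjusted p = 0.011). This probe was dim, with raw intensities of 363, 320 and 260 against 182, 159 and 132, and without background correction the difference was -0.73 (limma adjusted p = 0.019). It was the lowest member on each Dnmt1-/- array, at -1.76, -0.96 and -1.18 from the Dnmt1+/+ mean.

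Among the small-subunit genes that did not pass, S6 (Rps6), the phosphorylated target of the S6 kinases, read 13.22, 13.14 and 13.03 in Dnmt1+/+ and 12.63, 12.90 and 12.87 in Dnmt1-/- MEFs. Its groups were apart by a narrow margin, with a log2 difference of -0.32 ± 0.16 (SE, limma adjusted p = 0.20). Rps25 and Rps13 measured -0.25 and -0.24, each with overlapping groups, and Rps2, Rps10 and Rps24 lay between -0.02 and 0.00. Rps27l, the paralogue of Rps27 and a known p53 target, measured -0.10 ± 0.15 (SE, limma adjusted p = 0.68) in these p53-deficient lines. Rps15 measured 0.16, the same difference as Rps4x.

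In the large subunit no gene passed. Rpl21, named because it lay just outside the threshold, read 7.71, 7.73 and 7.30 in Dnmt1+/+ and 7.95, 8.25 and 8.44 in Dnmt1-/- MEFs. All Dnmt1-/- arrays were above the Dnmt1+/+ arrays, with a log2 difference of 0.63 ± 0.20 (SE), an interval of 0.18 to 1.09 and a limma adjusted p of 0.065. Its other probes differed by 0.53 and 0.50, also short of the threshold. Rpl21 was called without Dnmt1-/- replicate 1 (0.78, limma adjusted p = 0.032) and under cyclic loess (0.70, limma adjusted p = 0.04). Rpl4, with 10.80, 10.67 and 10.44 against 10.31, 10.30 and 10.25, had a difference of -0.35 ± 0.16 (limma adjusted p = 0.18). Rpl13a measured -0.28 and Rpl26, which binds the p53 mRNA in human cells, 0.26, both with groups that did not overlap. Rpl41, Rpl3, Rpl23, Rpl27 and Rpl38 lay between 0.01 and 0.07.

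The stalk proteins P0, P1 and P2 form the large-subunit arm that recruits elongation factors. The gene for P0, Rplp0, which is often used as a reference gene, read 10.69, 10.69 and 10.27 in Dnmt1+/+ and 10.10, 10.05 and 10.05 in Dnmt1-/- MEFs. The groups were apart, with a log2 difference of -0.49 ± 0.17 (SE), an interval of -0.88 to -0.09 and a limma adjusted p of 0.092. The partners differed less, at -0.01 for Rplp1 (limma adjusted p = 0.97) and -0.15 for Rplp2 (limma adjusted p = 0.58), where the sign of Rplp1 turned to 0.17 under cyclic loess. Rpl7l1, a paralogue of Rpl7, measured -0.18 ± 0.23 (SE, limma adjusted p = 0.64).

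**Figure D3:**
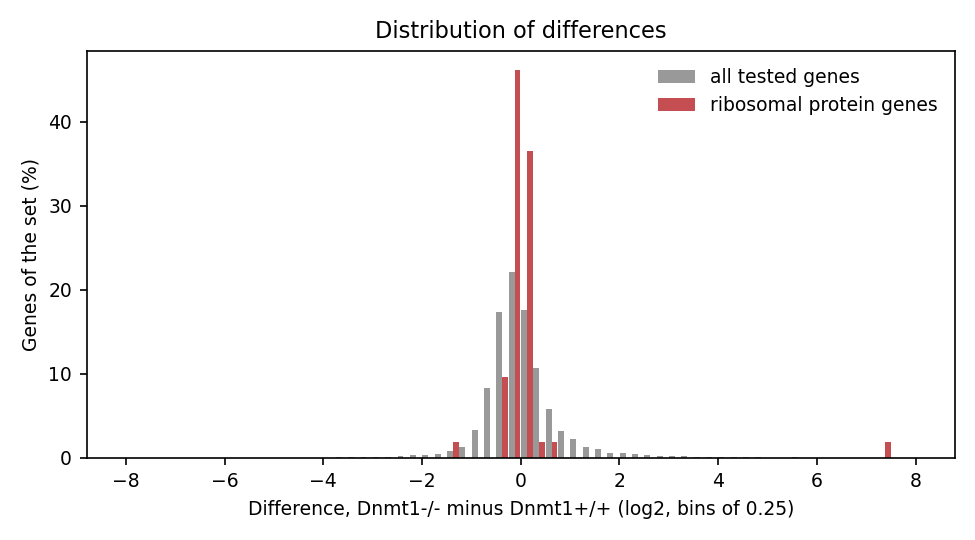
Share of genes in bins of 0.25 of the log2 difference between Dnmt1-/- and Dnmt1+/+ MEFs, with 8716 tested genes in grey and 52 tested ribosomal protein genes in red. Ribosomal protein genes crowd around 0, apart from Rps15a at -1.30 and Rps4l at 7.34.

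By array, the median of the members relative to the Dnmt1+/+ mean was 0.06, -0.01 and -0.06 on the Dnmt1+/+ arrays and -0.01, -0.04 and -0.03 on the Dnmt1-/- arrays. The ranges overlapped. Their probes carried 5.71%, 5.55% and 5.57% of all background-corrected signal in Dnmt1+/+ MEFs and 4.84%, 5.97% and 5.93% in Dnmt1-/- MEFs, where replicate 1, the brightest array, had the lowest share and the others the highest. Arrays were brought to 1 common distribution, so a shift shared by all transcripts would not be seen.

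Several tested probes were available for 16 of the genes, and in none did they differ in call. The spread between probes of a gene had a median of 0.18 and ran from 0.01 for Rps9 to 0.64 for Rps19. In 10 of the 16 genes the dimmest probe gave a lower difference than the brightest. Rps19 measured -0.05 by its brightest probe and -0.70 by its dimmest, Rps13 -0.24 and -0.87, and Rpl31 -0.01 and -0.50. The value given for these genes thus differs with the probe, and the dimmest probes were less precise. Their SE was 0.33 for Rps19, 0.34 for Rps13 and 0.27 for Rpl31, against 0.15, 0.18 and 0.15 by the brightest. The dimmest probes of Rps19 and Rps13 had means of 6.51 and 6.55, and their brightest 13.40 and 12.62. Rps15a, whose single probe was also dim, has no brighter probe to set beside it. Whether its fall depends on the probe was not tested.

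The 9 genes that were not tested were Rpl14, Rpl17, Rpl22l1, Rpl39l, Rpl3l, Rpl6, Rps20, Rps23 and Rpsa. Rpl22l1, the paralogue of Rpl22, was above background on 2 Dnmt1-/- arrays and reached 5.46, and the other 8 were above background on 0 arrays. For the tissue-restricted Rpl3l and Rpl39l the highest reading was 4.93 and 4.84. Rpl14, Rpl17, Rpl6, Rps20, Rps23 and Rpsa encode core components of the ribosome. Probe design was not examined, and a reading at background gives only a bound on their transcripts. Another 8 probes that did not pass the filter belonged to 7 genes that had another probe that was tested.

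Position in the genome was examined because genes of chromosome 4 lay lower as a block in Dnmt1-/- MEFs. Their median log2 difference was -0.46 over 538 tested genes, with 26 higher (4.83%) and 132 lower (24.5%). Of all tested genes, 9.61% were higher and 7.82% lower. Both tested members on chromosome 4, Rps6 and Rpl22, lay below 0, at -0.32 and -0.19, and neither passed. The part of the chromosome in these values was not tested. On chromosome X, where 283 tested genes had a median of 0.03, Rps4x, Rpl39 and Rpl36a measured 0.16, 0.16 and 0.06. On chromosome 6 the other tested member beside Rps4l was Rpl32, at 0.14.

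Related genes outside the family gave the following values. Rps3a1 and Rpl36al, cytosolic ribosomal protein genes whose symbols fall outside the naming rule, measured 0.08 and -0.04 on the log2 scale (limma adjusted p = 0.79 and 0.90). Of 71 tested genes for mitochondrial ribosomal proteins, which serve the separate ribosome of mitochondria, 1 rose, 3 fell and 67 did not pass, with a median of -0.05. The gene that rose was Mrpl36, by 0.75 ± 0.16 (SE, limma adjusted p = 0.02). Those that fell were Mrpl37 (-0.83), Mrpl50 (-0.72) and Mrps31 (-0.69), of which Mrpl37 and Mrpl50 lie on chromosome 4. The count of 4 called (5.63%, against 17.4% of all tested genes) was 1 without Dnmt1+/+ replicate 1, Dnmt1+/+ replicate 2 or Dnmt1-/- replicate 3 and 2 without Dnmt1-/- replicate 2, and 12 without background correction.

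Ribosome biogenesis factors, which process ribosomal RNA and assemble the subunits in the nucleolus, had mostly negative differences. Among the 41 factors tested, 1 rose and 2 fell, and 38 values were below 0. The median log2 difference was -0.54, or -0.50 over the 38 genes not on chromosome 4, against -0.05 over all tested genes. The 3 called were 7.32% of the list, against 17.4% of all tested genes, and at an unadjusted p under 0.05 there were 16 of 41, where the share of all genes was 33.8%. Ebna1bp2, a large-subunit assembly factor on chromosome 4, fell by 1.04 (limma adjusted p = 0.033), and Gnl3l, a nucleolar GTPase on chromosome X, fell by 0.92 (limma adjusted p = 0.035). Tsr1, which acts in small-subunit maturation, rose by 0.63 (limma adjusted p = 0.031). The median of the list relative to the Dnmt1+/+ mean was 0.22, 0.06 and -0.29 on the Dnmt1+/+ arrays and -0.84, -0.21 and -0.31 on the Dnmt1-/- arrays. These ranges overlapped, and the lowest value was that of Dnmt1-/- replicate 1. The count of 3 called was 0 without Dnmt1+/+ replicate 1, Dnmt1+/+ replicate 2 or Dnmt1-/- replicate 3, 1 without Dnmt1-/- replicate 2, and 14 with replicate 1 as the only Dnmt1-/- array.

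Of 30 tested translation factors, which bring mRNA, transfer RNA and ribosome together, 0 were called by limma, 2 had an unadjusted p under 0.05, and the median was -0.15. Over all tested genes 17.4% were called, and 33.8% had an unadjusted p under 0.05. With other settings 1 factor was called, for example without background correction. Among genes that carry the name of S6 kinases, Rps6ka3 fell by 1.25 (limma adjusted p = 0.0048) and Rps6ka5 measured -0.51 (limma adjusted p = 0.086). Of 10 tested housekeeping genes 0 were called by limma and 0 had an unadjusted p under 0.05, with a median of -0.01.

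**Figure D4:**
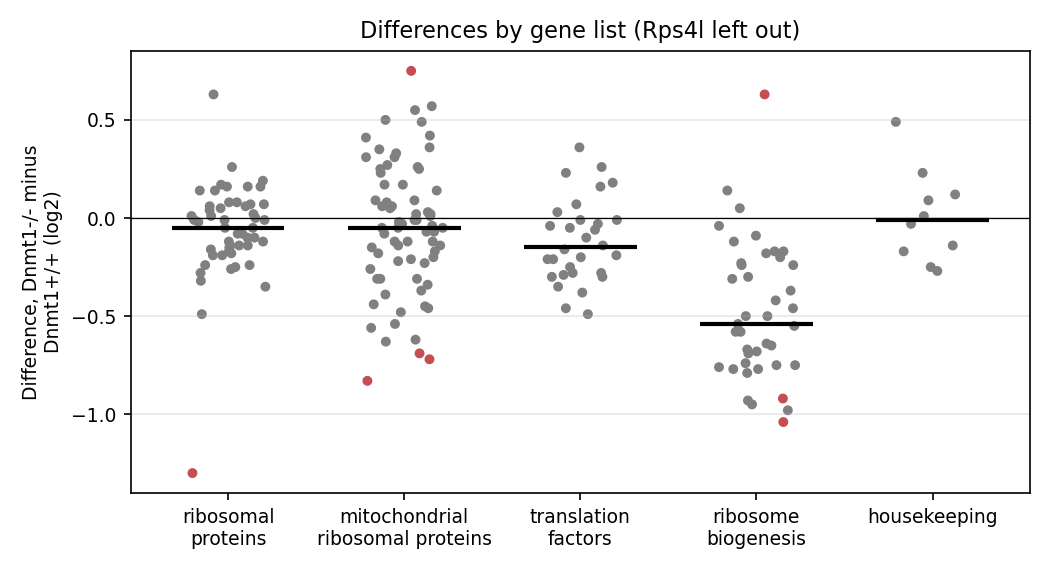
Log2 difference between Dnmt1-/- and Dnmt1+/+ MEFs for each tested gene of 5 lists, with Rps4l left out; points are genes, red marks an adjusted p under 0.05, and the black bar is the median of the list. The bars stand at -0.05, -0.05, -0.15, -0.54 and -0.01 from left to right.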

How the data were processed

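The authors deposited a raw table of linear intensity values with detection p-values for every probe on every array. Their processed intensity values, made by the authors with lumi, were used as an alternative. Those are linear, with medians of 103 to 104 per array, and where the stated variance-stabilizing transformation was undone is not settled. Raw values went through neqc (limma 3.58.1, R 4.3.3), that is, normexp with control moments taken from detection p-values, offset 16, quantile normalization and log2. The 15795 probes detected at p under 0.01 on 3 or more of 6 arrays entered lmFit and eBayes with a term for group alone. Tests were two-sided, adjusted by Benjamini-Hochberg over all these probes, at 0.05. For each of 8716 genes the tested probe of highest mean was used. Intervals are at 95%. The steps were tested on simulated data. The number of arrays limits the precision.

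Genes were named by rule: Rps4l and Rps4x, paralogues ending in l, the stalk genes, members that passed or were not tested, and up to 4 passing genes of each other list. Others were named after their values were seen. The members and lists were chosen with earlier results of these data known. Sequences come from RefSeq (GRCm38.p6). Alternatives were other scalings, backgrounds, offsets and filters, the authors' values, the median over probes, a replicate block and leaving out arrays. The array's own genome build is not given in the sources used here.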

Additional observations from a re-analysis of the deposited data

How the results depend on the processing

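The rise of Rps4l kept its direction and call in every setting that retained the gene. Requiring detection on all arrays removed it, leaving 0 members higher. Rps15a was called lower in every setting run, most narrowly with no filter (limma adjusted p = 0.0499). Members higher numbered 2 under cyclic loess, which added Rpl21, and 1 to 2 when 1 array was left out. The members' median was -0.15 under median scaling and 0.05 under cyclic loess. Mitochondrial ribosomal protein calls were 7 under cyclic loess, with no filter and by the median over probes, 12 without background correction, 10 with the authors' values, 8 at offset 50, 1 to 6 with 1 array left out and 2 without the dimmer Dnmt1-/- replicates 2 and 3, a setting chosen after seeing the data that assumes the lone array varies like the others. Biogenesis calls were 1 with no filter, 0 to 4 with 1 array left out and 14 without the dimmer replicates. Translation factor calls were 1 without background correction, with the authors' values, at offset 50 and with no filter. The sign turned for Rplp1 (0.17 under cyclic loess, 0.06 with the authors' values, and -0.03 to 0.03 with 1 array left out), Rpl7l1 (-0.33 to 0.03 with 1 array left out, positive without Dnmt1-/- replicate 1) and Rplp2 (0.02 without the dimmer replicates). The causes were not tested.

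The deviations of samples with the same replicate number correlated at r = -0.23, 0.33 and -0.14, without a common sign. With so few arrays per group, these values cannot decide whether the numbers pair the samples. A replicate block gave 609 genes higher and 399 lower, 2 mitochondrial ribosomal protein calls and 1 biogenesis call, and changed no call among the members, with Rps4l at adjusted p = 0.00013. Signal over background limits the 9 untested genes.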
